A study of Mus musculus with 8 samples.

Results

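The mRNAs of 9 nonsense-mediated decay (NMD) factors were followed in mouse oocytes that lacked the deadenylases Cnot7 and Cnot8: Upf1, Upf2, Upf3a, Upf3b, Smg1, Smg5, Smg6, Smg8 and Smg9. They were chosen by gene symbol from the 46078 genes of the count table, with earlier results of these data known. All 9 were among the 19241 genes tested, which reached 0.2 CPM, the count of a gene scaled to a fixed library total, in 2 or more libraries.

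RNA-seq was performed on fully grown oocytes at the germinal vesicle (GV) stage, with 4 Zp3-Cre control libraries and 4 CNOT7&8 KO libraries that each pooled 100 oocytes. The KO mice carried floxed alleles of both genes, Cnot7 fl/fl and Cnot8 fl/fl, and Cre driven by the oocyte promoter Zp3, so both deletions were made in growing oocytes. Control mice carried the same Cre transgene, and no floxed allele is named for them in the labels. Floxed lines had been backcrossed to C57BL/6J mice for at least 8 generations, and oocytes were taken from 4-week-old females 48 h after an injection of PMSG, a gonadotropin that drives follicle growth. The oocytes were freed of cumulus cells with hyaluronidase and held at the GV stage with dbcAMP. The labels do not say whether the libraries of a group came from separate animals, so p-values measure only the spread between these libraries, which may be technical. Within a pool, fewer oocytes with an mRNA and less of that mRNA per oocyte cannot be told apart.

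NMD is the pathway that degrades mRNAs on which a ribosome stops at a premature or otherwise unusual stop codon. The helicase UPF1 is its central factor. UPF2 and UPF3 proteins link UPF1 to exon junction complexes (EJCs) left downstream of the stop codon, the kinase SMG1 phosphorylates UPF1 under the control of SMG8 and SMG9, and phosphorylated UPF1 recruits SMG6, an endonuclease that cuts the mRNA, and SMG5, which recruits general decay enzymes. Fully grown oocytes are largely silent in transcription and rely on mRNAs stored during growth.

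Total counts ranged from 8639444 to 44092144 per library, and 5295 to 32357 counts per library fell on the 9 NMD factors. A signal of 3 counts corresponded to between 0.0802 and 0.326 normalized CPM, which is CPM after TMM scaling of the library sizes, and this floor covers counting error only. Cnot8 fell from 168 ± 20.003 to 35.2 ± 1.40 normalized CPM (mean ± SD, n = 4 per group, adjusted p = 8.20e-08 by edgeR's quasi-likelihood test), and Cnot7 from 933 ± 77.3 to 719 ± 70.8 (adjusted p = 0.0105), with no overlap between the groups for either gene. The Cnot7 call depended on scaling, with a log2 fold change of -0.38 that was -0.09 when libraries were scaled by their totals alone (adjusted p = 0.383). This concerns mRNA counts, and by immunoblot the study reported that both proteins were absent from KO oocytes. All 12 oocyte markers were detected, and their summed level was 18341 to 21436 normalized CPM in control and 15253 to 17571 in KO libraries. Of the 12, 6 were lower and 2 higher in KO libraries, where 24.1% of all tested genes were lower and 31.2% higher. All but Figla averaged 100 CPM or more. Of coding genes at that level, with or without an annotated NMD transcript, 55.3% to 56.7% were lower and 6.52% to 8.69% higher, so the 6 lower markers lie near that background. Of 11 markers of granulosa and cumulus cells, 10 passed the filter and none was at 0 in all libraries. Their sum was 80.4 to 104 normalized CPM in control and 86.4 to 145 in KO libraries, and 4 of the 10 rose (Fshr, Inha, Inhba and Kitl) and 1 fell (Cyp19a1), named here after their values were seen, beside the all-gene background of 31.2% higher and 24.1% lower. Cyp19a1 was the largest part of the control sum, at 58.4 ± 8.01 against 31.3 ± 6.02 in KO libraries. In the sum its fall offset rises such as that of Kitl, from 16.0 ± 3.63 to 43.4 ± 10.3. The part of granulosa and cumulus cells in the results was not tested. Control replicate 1 and KO replicate 4 lay apart from the other libraries of their groups, with fewer reads on genes of high GC content. Their deviation also differed with transcript length, among genes of at least 10 CPM. The median log2 deviation was 0.35 for long and 0.02 for short genes in control replicate 1, and 0.18 and -0.12 in KO replicate 4. The root mean square difference in log2 CPM from the rest of the group was 0.522 for control replicate 1 against 0.244 to 0.254 for the other controls, and 0.384 for KO replicate 4 against 0.202 to 0.331 for the other KO libraries.

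The NMD factor genes lie at 9 places on 6 chromosomes (GRCm38, GENCODE vM21). Upf1 (ENSMUSG00000058301) is at chr8:70331525-70353278 on the minus strand, Upf2 (ENSMUSG00000043241) at chr2:5951469-6056703 on the plus strand, Upf3a (ENSMUSG00000038398) at chr8:13785615-13799193 on the plus strand and Upf3b (ENSMUSG00000036572) at chrX:37091678-37110322 on the minus strand. Smg1 (ENSMUSG00000030655) is at chr7:118131308-118243670 on the minus strand, Smg8 (ENSMUSG00000020495) at chr11:87077732-87086774 on the minus strand and Smg9 (ENSMUSG00000002210) at chr7:24399619-24422778 on the plus strand. Smg5 (ENSMUSG00000001415) is at chr3:88336260-88362338 and Smg6 (ENSMUSG00000038290) at chr11:74925823-75164448, both on the plus strand. Exons of Smg6 share 126 bases with Srr and 117 with an antisense gene, and exons of Upf1 share 68 bases with Cers1 and 63 with Gdf1, all on opposite strands and each under 1.5% of the exon bases. The strand setting of the counting is not given in the sources used here, so reads in these short stretches could belong to either gene.

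CCR4–NOT can be brought to oocyte mRNAs by proteins that bind elements in their 3′UTRs, among them the cytoplasmic polyadenylation element (CPE). The longest annotated 3′UTR of each member was searched on the transcript strand. The CPE, searched as TTTTAT, was found in 3 of the 9 members, against 56.2% of 15125 tested coding genes with a 3′UTR. Smg1 held 8 copies in 4233 bases, and Upf3a and Upf3b held 1 copy each in 719 and 834 bases. In the last 200 bases, where a CPE lies close to the polyadenylation signal, 1 of 9 members held it (Upf3b), against 23.7% of 13708 genes. The Pumilio element, searched as TGTAAATA, was in none of the 9 (12.0% of all), and the AU-rich element, searched as ATTTA, was in 7 of 9 (69.8% of all). A TTTTAT that runs into ATTTA can share bases with it. The polyadenylation signal AATAAA stood in the last 200 bases of all 9 (68.6% of all). The windows below show the CPEs, 1 for each of the 3 members that have them and for Smg1 the copy nearest the 3′ end, and the polyadenylation signals of the 3 members that changed at least 2-fold, none of which holds a CPE. Each is written 5′ to 3′ on the transcript strand with the element in capitals.
Upf3b CPE, chrX:37091805-37091830, minus strand: ctagtctttgTTTTATcttaggtctg
Upf3a CPE, chr8:13798897-13798922, plus strand: agaatcaggtTTTTATctacctggaa
Smg1 CPE, chr7:118131751-118131776, minus strand: agttctgaaaTTTTATttttccacaa
Upf1 polyadenylation signal, chr8:70331528-70331553, minus strand: ttttgtcaccAATAAAacatgaacaa
Smg5 polyadenylation signal, chr3:88362304-88362329, plus strand: actcaagcttAATAAAgacccccttc
Smg9 polyadenylation signal, chr7:24422745-24422770, plus strand: tgatggttcgAATAAAtgtggtcaca
These matches describe the annotated sequence, and the data do not show which 3′ ends the oocytes use.

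The 9 members did not move together. Smg5 rose, Upf1, Smg9, Smg6 and Upf3b fell, and Upf2, Upf3a, Smg1 and Smg8 did not pass the test. Changes were called at an adjusted p of at most 0.05 in edgeR's quasi-likelihood test over all 19241 genes. Thus 1 of 9 was higher in KO oocytes, where 31.2% of all tested genes were, and 4 of 9 were lower, where 24.1% of all were. With a change of at least 2-fold, 1 member was upregulated (23.8% of all genes) and 2 were downregulated (6.56% of all). The median log2 fold change of the members was -0.33, against 0.12 over all tested genes. All members but Smg9 averaged at least 10 CPM. The median was -0.17 for genes between 10 and 100 CPM and -0.37 for genes of 100 CPM or more. Of coding genes of at least 10 CPM, 35.5% to 56.7% were lower and 6.52% to 27.1% higher, over classes of level and annotation. The 4 of 9 lower and 1 of 9 higher thus lie near the background of such genes. All 4 KO libraries lay above all 4 controls for 1 member (27% of all genes) and below them for 3 (21.4% of all).

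**Figure D1:**
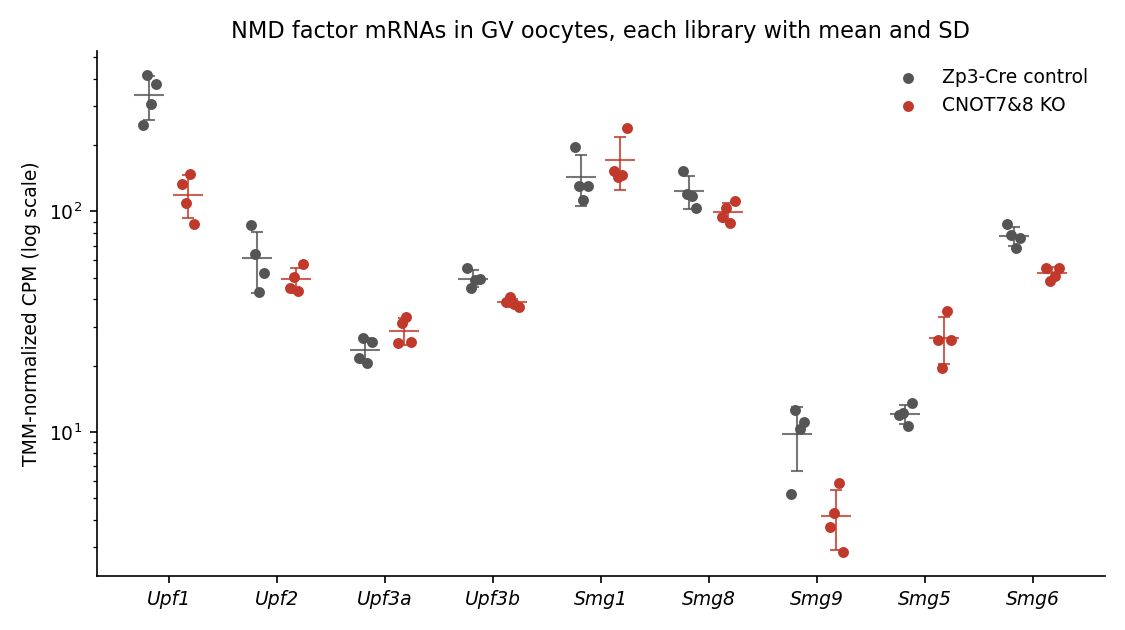
Level of each NMD factor mRNA in every library, in normalized CPM on a log axis, with Zp3-Cre control and CNOT7&8 KO libraries as points and the mean and SD of each group as bars. Upf1 lies at 246 to 418 in control and 88.0 to 148 in KO libraries, whereas Smg5 lies at 10.6 to 13.5 in control and 19.5 to 35.3 in KO libraries.

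Upf1 showed the largest decrease of the 9. It was at 246, 418, 306 and 378 normalized CPM in control replicates 1 to 4 and at 133, 109, 148 and 88.0 in KO replicates 1 to 4. Every KO library thus lay below the lowest control, control replicate 1. The log2 fold change was -1.50 (SE 0.19), a 2.82-fold decrease (adjusted p = 4.16e-05, edgeR's quasi-likelihood test), and 35.4% of the control level remained. Among the 2412 tested genes of 100 CPM or more on average, 17 genes, Upf1 included, were as low or lower, which is 0.705% of them. The median of that class was -0.37, and 6.05% of it was downregulated at least 2-fold. Upf1 mRNA is GC-rich (57.9%), and high GC content went with lower values. The median log2 fold change of genes with at least 10 CPM was -0.12 in the 2903 genes of lowest GC content and -0.43 in the 2903 of highest. With the GC trend of each library removed, a correction chosen after seeing the data that also removes any real difference tied to GC content, the log2 fold change of Upf1 was -1.08 (adjusted p = 4.82e-07). Without control replicate 1 and KO replicate 4 it was -1.50 (adjusted p = 7.24e-07).

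Upf2 encodes the adaptor between UPF1 and UPF3 proteins. Its level was 86.6, 64.3, 43.3 and 52.4 normalized CPM in control replicates 1 to 4 and 45.2, 50.3, 43.5 and 57.9 in KO replicates 1 to 4. The groups overlapped, with control replicate 1 the highest of all 8 libraries, and the difference did not pass the test (log2 fold change -0.33, SE 0.19, adjusted p = 0.166). It was -0.11 without control replicate 1. It passed the test without control replicate 3 (-0.46, adjusted p = 0.0497) and with the GC trend removed (-0.37, adjusted p = 0.0328), a correction described above for Upf1.

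Upf3a and Upf3b encode paralogous proteins that link UPF2 to the EJC, and UPF3B is the more active of the pair in NMD. Upf3b was at 55.5, 44.7, 49.1 and 49.2 normalized CPM in control replicates 1 to 4 and at 38.8, 40.8, 38.2 and 36.9 in KO replicates 1 to 4. The groups did not overlap, and Upf3b fell by 0.36 on the log2 scale (SE 0.11, adjusted p = 0.0173). This call was lost with library totals alone as scaling (-0.08, adjusted p = 0.555), with TMM on genes of at least 10 CPM (-0.11), with upper quartile scaling (-0.26) and with the replicate number as a block (-0.36, adjusted p = 0.0635). Upf3a was at 21.6, 26.5, 20.5 and 25.7 in control replicates 1 to 4 and at 25.3, 31.1, 33.3 and 25.7 in KO replicates 1 to 4. Its groups overlapped slightly, and it did not pass the test (log2 fold change 0.29, SE 0.15, adjusted p = 0.108), although it passed with 5 of 11 other settings, with a log2 fold change of up to 0.58.

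Smg1 encodes the kinase of UPF1. In control replicates 1 to 4 it was at 197, 131, 113 and 131 normalized CPM, and in KO replicates 1 to 4 at 153, 144, 147 and 240.2. Control replicate 1 and KO replicate 4 were the highest of their groups, and the groups overlapped through control replicate 1 only. The difference did not pass the test (log2 fold change 0.26, SE 0.20, adjusted p = 0.286). It was 0.46 without control replicate 1 (adjusted p = 0.0341), 0.08 without KO replicate 4, and 0.25 without both (adjusted p = 0.0295), so that the call depended on these libraries.

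Smg8 and Smg9 encode the regulatory subunits of the SMG1 kinase complex. Smg9 was at 5.24, 12.6, 10.3 and 11.1 normalized CPM in control replicates 1 to 4 and at 3.69, 4.28, 5.86 and 2.86 in KO replicates 1 to 4. Control replicate 1 lay inside the KO range and the other 3 controls above it. Smg9 fell by 1.23 on the log2 scale (SE 0.29), a 2.34-fold decrease (adjusted p = 0.00359). This was the least abundant member in reads, with 152 to 255 counts in control and 34 to 95 in KO libraries. Its mRNA had the highest GC content of the 9, 60.3%, and with the GC trend removed the decrease was -0.67 and no longer 2-fold (adjusted p = 0.0024). It was also just under 2-fold with library totals alone (-0.95) and with TMM on genes of at least 10 CPM (-0.99998). Without control replicate 1 it was -1.45. Of the 5032 genes between 1 and 10 CPM, 5.29% were as low or lower, and their median was 0.47.

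Smg8 was at 153, 120, 118 and 104 normalized CPM in control replicates 1 to 4 and at 94.3, 104, 88.4 and 112 in KO replicates 1 to 4. The groups overlapped, and the log2 fold change of -0.31 (SE 0.13) did not pass the test (adjusted p = 0.0626). It passed without control replicate 4 (-0.39, adjusted p = 0.0362), without KO replicate 4 (-0.35, adjusted p = 0.0294) and without both libraries that lay apart (-0.26, adjusted p = 0.0358), and it was -0.03 with library totals alone.

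SMG5 and SMG6 act on phosphorylated UPF1 at the decay step, SMG6 by cutting the mRNA and SMG5 by recruiting general decay enzymes. With TMM scaling, the filter of 0.2 CPM in 2 libraries and all 8 libraries, Smg5 was the only member that rose. Upf3a and Smg1 also passed as higher with TMM on genes of at least 10 CPM and with library totals alone. Upf3a passed too with upper quartile scaling (0.39), the filter of at least 1 CPM in 4 libraries (0.36) and the GC trend removed (0.47). Smg1 passed too without control replicate 1 and without both libraries that lay apart. Smg5 was at 11.9, 12.2, 10.6 and 13.5 normalized CPM in control replicates 1 to 4 and at 26.1, 19.5, 35.3 and 26.3 in KO replicates 1 to 4. All KO libraries lay above all controls, and the log2 fold change was 1.15 (SE 0.18), a 2.22-fold increase (adjusted p = 0.000202). An increase of this size was not rare at this level of expression, since 10.9% of the 6314 genes between 10 and 100 CPM were as high or higher and 12.7% were upregulated at least 2-fold. The median of these genes was -0.17.

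Smg6 was at 87.5, 77.9, 68.6 and 75.4 normalized CPM in control replicates 1 to 4 and at 55.1, 48.4, 51.0 and 55.6 in KO replicates 1 to 4. The groups did not overlap, and Smg6 fell by 0.56 on the log2 scale (SE 0.11, adjusted p = 0.00135). The decrease was -0.27 with library totals alone, where it still passed the test (adjusted p = 0.0319).

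**Figure D2:**
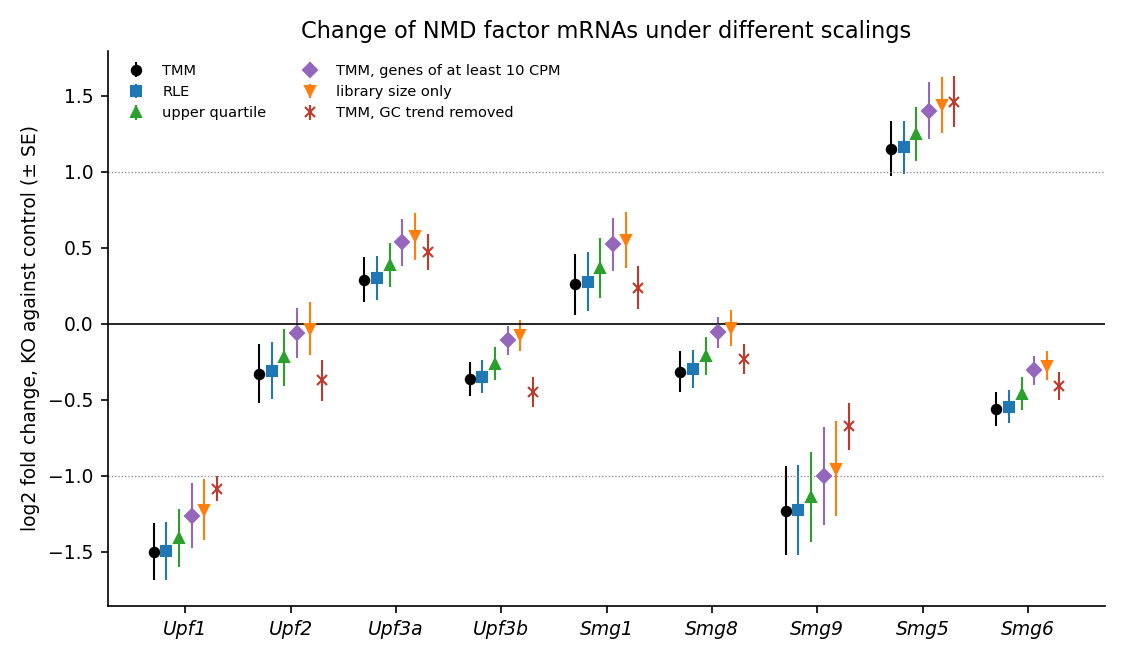
Log2 fold change, KO against control, of each NMD factor with its SE under TMM, under 4 other scalings of library size and with the GC trend removed, with dotted lines at 2-fold in either direction. Upf1 stays between -1.50 and -1.08 and Smg5 between 1.15 and 1.46 under those shown, whereas Upf3b moves to -0.08 with library totals alone.

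Upf1, Smg5, Smg6 and Smg9 passed the test in the same direction in each of 11 alternative settings and with each of the 8 libraries left out in turn, and no member changed direction in any of them. The choice of scaling shifted the whole distribution. With library totals alone the median log2 fold change of all genes was higher by 0.29, and the share of upregulated genes among the DEGs was 90.6% in place of 78.4%. With TMM on genes of at least 10 CPM it was 89.8%, with a median higher by 0.26.

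Ratios of members within a library do not depend on this scaling. For 5 ratios chosen by function, the groups were compared with an exact two-sided permutation test on log2 ratios over the 70 assignments of the libraries, for which the smallest possible p is 0.0286. The ratio of Smg5 to Smg6 counts was 0.136, 0.156, 0.155 and 0.179 in control replicates 1 to 4 and 0.472, 0.403, 0.692 and 0.472 in KO replicates 1 to 4. It thus rose 3.20-fold with no overlap between the groups (log2 difference 1.68, exact permutation p = 0.0286, adjusted p over the 5 ratios = 0.0476). Every KO library lay above all controls for Smg5 and below them for Smg6. The separation of this ratio and its p were thereby fixed, and they add no separate evidence.

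Smg1 counts were 0.313 to 0.7999 times those of Upf1 in control libraries, with control replicate 1 the highest, and 0.990 to 2.73 times in KO libraries, with KO replicate 4 the highest. The groups did not overlap, and the ratio rose 3.37-fold (log2 difference 1.75, exact permutation p = 0.0286, adjusted p = 0.0476). The ratio of Upf3a to Upf3b was 0.389 to 0.593 in control and 0.653 to 0.871 in KO libraries, again without overlap, and rose 1.56-fold (log2 difference 0.65, exact permutation p = 0.0286, adjusted p = 0.0476). For Smg1/Upf1 and Upf3a/Upf3b too, the ranges of the single members in each group already fixed the separation and its p. These ratios thus add no separate evidence. Upf2 against Upf1 was 0.139 to 0.352 in control and 0.294 to 0.658 in KO libraries, and overlapped through control replicate 1 (log2 difference 1.21, exact permutation p = 0.0857, adjusted p = 0.107). Smg8 against Smg9 also overlapped through control replicate 1, with 9.38 to 29.2 in control and 15.1 to 39.0 in KO libraries (log2 difference 0.89, exact permutation p = 0.114, adjusted p = 0.114). Without control replicate 1 and KO replicate 4, the log2 differences were 1.64 for Smg5/Smg6, 1.75 for Smg1/Upf1, 0.58 for Upf3a/Upf3b, 1.31 for Upf2/Upf1 and 1.06 for Smg8/Smg9. A ratio of mRNAs that differ in GC content or length is not free of library effects of that kind, and GC content is 57.9% for Upf1 against 43.5% for Upf2 and 44.9% for Smg1.

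**Figure D3:**
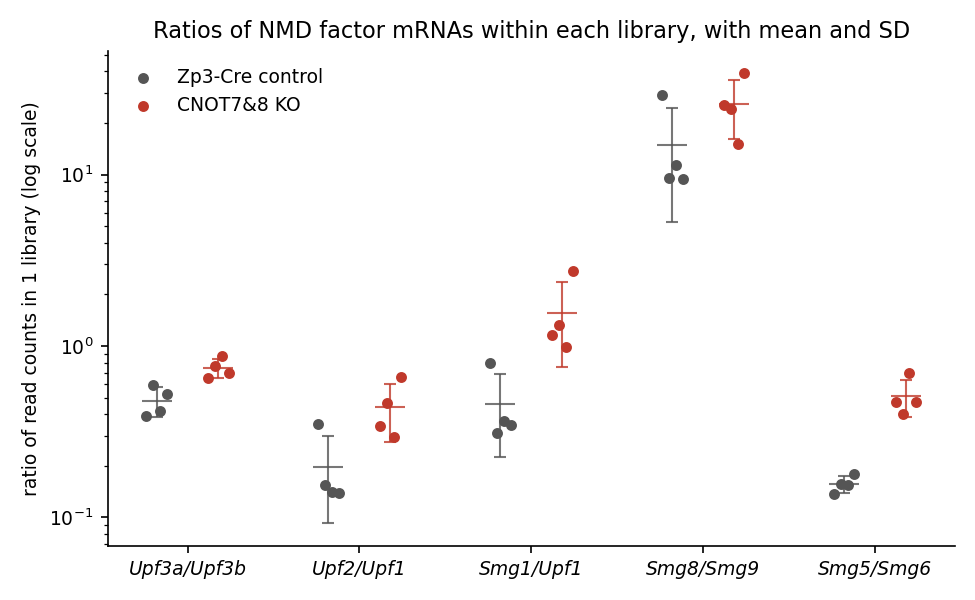
Ratios of counts between NMD factors within each library, on a log axis, with control and KO libraries as points and the mean and SD of the ratios as bars. The ratios Upf3a/Upf3b, Smg1/Upf1 and Smg5/Smg6 do not overlap between the groups, whereas Upf2/Upf1 and Smg8/Smg9 overlap through control replicate 1.

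Levels of different members can be compared per length of transcript. Dividing normalized CPM by the length of the longest coding transcript (2.06 kb for Upf3a to 15.6 kb for Smg1), Upf1 was the most abundant NMD factor mRNA in control oocytes, with 73.0 ± 16.5 CPM per kb (SD, n = 4), above 93.7% of 19126 tested genes. It was followed by Smg8 with 38.5 ± 6.47 and Upf3b with 21.2 ± 1.89 CPM per kb, and the ranges of these 3 did not overlap. Smg6 (13.2), Upf2 (11.9), Upf3a (11.5) and Smg1 (9.18) lay close together with overlapping ranges, and Smg9 (4.37) and Smg5 (2.71 ± 0.264) were lowest, also overlapping. Smg5 lay above 52.1% of all tested genes.

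In KO oocytes the level of Upf1 was 25.9 ± 5.73 CPM per kb and overlapped that of Smg8, 30.9 ± 3.19. Upf3b (16.5) and Upf3a (14.02) then overlapped each other, and Smg1 (10.99), Upf2 (9.51) and Smg6 (8.98) followed with overlapping ranges. Smg5, at 6.02 ± 1.46, lay above Smg9, at 1.86 ± 0.564, with no overlap, whereas these were the pair that overlapped at the lower end in control oocytes. Summed over the 9 members, the level was 185.5 ± 13.997 CPM per kb in control and 125 ± 3.31 in KO oocytes. Within this sum Upf1 alone went from 73.0 to 25.9. The size of the difference depends on the scaling, with TMM factors of 0.849 to 0.943 in control and 1.07 to 1.14 in KO libraries. CPM are relative to all reads of a library, so the sum gives no amount per oocyte.

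**Figure D4:**
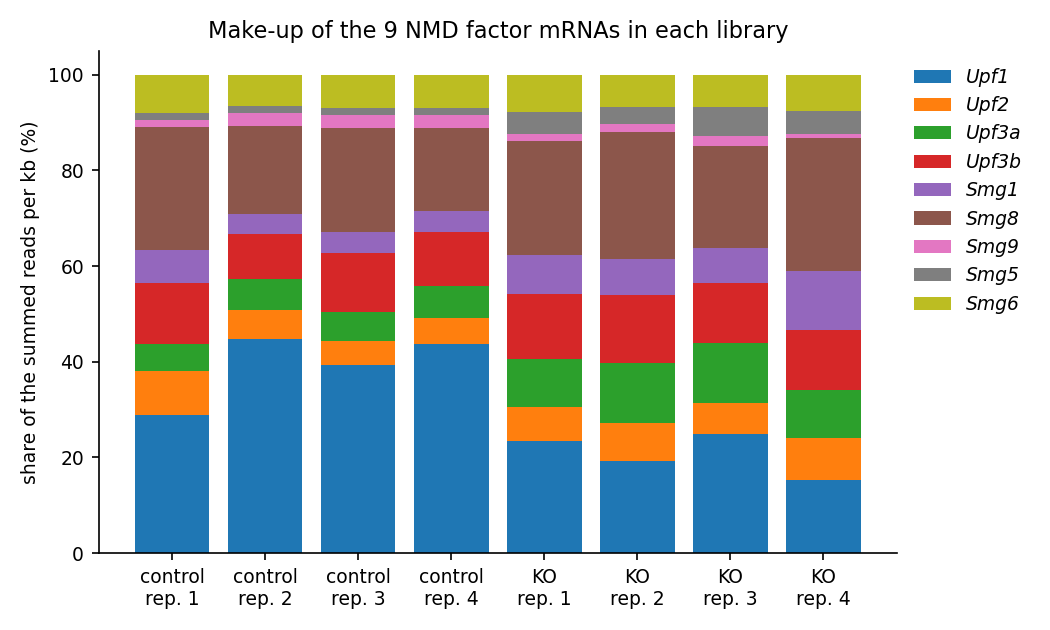
Share of each NMD factor in the summed CPM per kb of the 9 members, in percent, as a stacked bar for each control and KO library. Upf1 takes 28.9% to 44.7% in control libraries and 15.2% to 24.8% in KO libraries, and Smg5 takes 1.46% and 4.81% on average.

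The composition of the NMD factor mRNAs can be given as shares of this sum. The share of Upf1 was 39.2% ± 7.24 (SD, n = 4) in control and 20.7% ± 4.36 in KO oocytes, with ranges of 28.9% to 44.7% and 15.2% to 24.8%. Upf3a took 6.17% and 11.2%, Smg1 4.95% and 8.81%, and Smg5 1.46% and 4.81% in control and KO oocytes. Smg6 took 7.14% and 7.21%, so that its lower level left its share close to that of the control. These shares are descriptions, because each depends on the level of Upf1 in the same library.

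The genes whose profile over the 8 libraries was most like that of Upf1 were sought among the 8725 genes averaging 10 CPM or more, by the root mean square difference of log2 CPM after centring each gene. Mum1, which encodes a chromatin protein with a PWWP domain, differed by 0.112, and was at 104 ± 23.6 normalized CPM in control and 39.7 ± 8.35 in KO libraries. Camsap3, encoding a protein of microtubule minus ends, differed by 0.114, with 121 ± 24.1 and 44.0 ± 6.89. Sfswap, encoding a splicing regulator, differed by 0.123, with 36.8 ± 6.91 and 14.8 ± 2.88. In all 3, as in Upf1, control replicate 1 was the lowest control. This and their decrease in KO libraries follow from choosing them by likeness to Upf1 over all 8 libraries, and neither is a separate finding. With the GC trend removed, the log2 fold change of Mum1 moved from -1.39 to -0.97. That of Camsap3 moved from -1.47 to -0.94, and both were then under 2-fold. That of Sfswap moved from -1.32 to -1.04 and stayed past 2-fold, as did that of Upf1 (-1.08). Of the other members Smg9 was nearest to Upf1, at 0.273, and 1.98% of the genes compared were nearer than it, whereas Smg5 was the farthest, at 1.34.

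Genes that act with these factors were described from lists chosen by function, with earlier results of these data known. Of 14 other NMD and translation termination factors, 2 rose and 3 fell, and 9 did not pass the test, with a median log2 fold change of -0.08. Over all tested genes 31.2% were higher and 24.1% lower. Ncbp1, encoding the large subunit of the nuclear cap-binding complex, rose from 6.56 ± 1.94 to 18.3 ± 1.38 normalized CPM (log2 fold change 1.46, adjusted p = 8.35e-05, edgeR), and Pnrc2, encoding a decapping adaptor, rose by 0.79 (adjusted p = 0.00394). Gspt1, encoding the release factor eRF3a, fell by 0.80 on the log2 scale (adjusted p = 0.00452) without overlap, and by 0.53 in the fit without control replicate 1, where it was at 103 against 53.4 to 60.4 in the other controls. Ruvbl2, encoding an ATPase that binds the SMG1 kinase, fell from 134 ± 56.4 to 54.7 ± 21.4 (log2 fold change -1.30, adjusted p = 0.00767), with groups that overlapped. Stau1, encoding a double-stranded RNA-binding protein, was at 265 ± 32.6 and 211 ± 24.3 (log2 fold change -0.33, adjusted p = 0.0354) and lost the call in 6 of 8 fits that left out a library. Without control replicate 1, 5 of the 14 were called higher in place of 2, beside 6189 of all 19173 genes tested in that fit.

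EJC genes were described next. Of 10 listed genes 9 were tested, and 7 of them were lower, none was higher and 2 did not pass, with a median log2 fold change of -0.53. Of all tested genes 24.1% were lower, and the share was higher among abundant genes, with 35.5% to 56.7% lower in coding genes of at least 10 CPM, a range over classes of level and annotation. Eif4a3, the RNA helicase at the core of the complex, fell from 241 ± 34.1 to 112 ± 16.4 normalized CPM (log2 fold change -1.11, adjusted p = 3.52e-05, edgeR) and was the only one to fall at least 2-fold. It was under 2-fold with library totals alone (-0.83), with TMM on genes of at least 10 CPM (-0.87) and with the GC trend removed (-0.89). Magoh, another core subunit, fell from 225 ± 13.0 to 155 ± 13.1 (log2 fold change -0.53, adjusted p = 0.000889). The peripheral subunits Pnn and Sap18 changed by -0.44 (adjusted p = 0.00566) and -0.77 (adjusted p = 0.0205), the latter with overlapping groups and with the call lost in 5 of 8 fits that left out a library. The count of 7 was 2 with library totals alone, where Magoh (-0.25, adjusted p = 0.0561) and Pnn (-0.15, adjusted p = 0.210) lost their calls, and 3 with TMM on genes of at least 10 CPM. Over all tested genes 2620 and 2863 were lower in these settings, in that order, in place of 4631. The EJC count was 4 without control replicate 2, 4 without KO replicate 2 and 4 without KO replicate 4.

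Of 17 genes known to give transcripts that NMD degrades, 15 were in the table and 14 were tested. Of these, 5 were higher, 1 was lower and 8 did not pass, with a median log2 fold change of 0.47. The 5 of 14 that were higher stand beside 31.2% of all tested genes, so that the count lies near the background. Tbl2 rose from 3.43 ± 0.762 to 11.4 ± 2.03 normalized CPM (log2 fold change 1.72, adjusted p = 3.24e-05, edgeR). Tra2b and Srsf7, splicing factors whose poison exons direct part of their own transcripts to NMD, rose by 0.91 (adjusted p = 3.24e-05) and 0.49 (adjusted p = 0.00803) on the log2 scale. Srsf7 lost its call with the GC trend removed (0.37, adjusted p = 0.058). The other two that rose, Gadd45a and Srsf6, were named after their values were seen, and rose by 0.73 each. Atf4, whose upstream reading frames make it NMD-sensitive, was the 1 called lower (log2 fold change -0.28, adjusted p = 0.0358), and its log2 fold change was 0.01 with library totals alone. Counts per gene do not separate the NMD-sensitive isoform of a gene from its other isoforms.

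**Figure D5:**
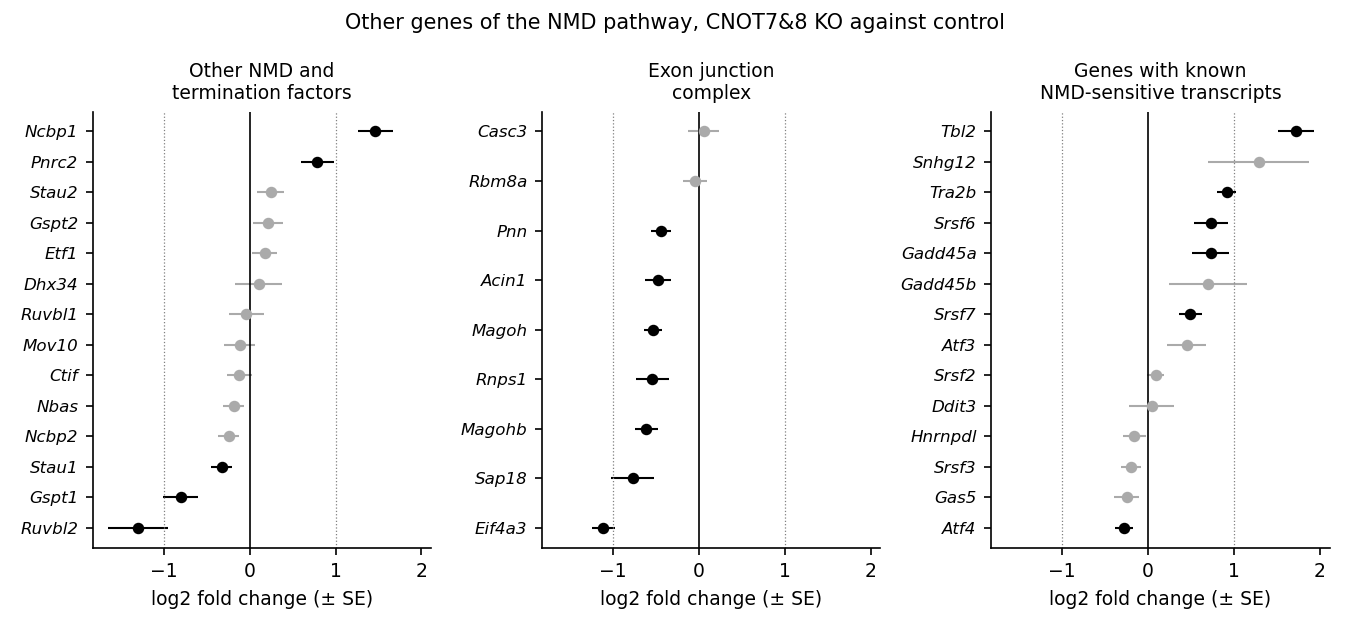
Log2 fold change, KO against control, of each tested gene of the 3 lists of related genes with its SE, black for an adjusted p of at most 0.05 and grey for the others, with dotted lines at 2-fold in either direction. Of the 9 EJC genes 7 are called and all 7 lie below 0, whereas the other lists hold called genes on both sides.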

How the data were processed

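Total RNA of GV oocytes was sequenced as 150-bp read pairs after 11 PCR cycles. The labels name a stranded total RNA kit with Ribo-Zero Gold, and the study's methods a stranded mRNA kit. The authors mapped reads with STAR 2.6.1d to GRCm38 within nf-core/rnaseq. The deposited values are the authors' raw counts per gene, not normalized or pooled. The counting tool, annotation and strand setting are not given in the sources used here. Of the gene identifiers 98.0% were found in GENCODE vM21, which supplied positions, lengths, GC content and 3′UTRs (at least 50 bases, with 10 bases printed on each side of an element).

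Groups came from the labels. Counts were analyzed in R 4.3.3 with DESeq2 1.42.0, limma 3.58.1 and edgeR 4.0.16. Genes that reached 0.2 CPM in 2 or more libraries entered edgeR's quasi-likelihood test after TMM scaling, with Benjamini-Hochberg adjustment over all 19241 genes. The study's methods used edgeR's exact test, which was run as an alternative. The DEG threshold was 0.05 for the adjusted p together with a 2-fold change. Ratios used counts plus 0.5, and profiles a prior count of 2. Figures and annotation used Python 3.11.15, pandas 2.3.3 and matplotlib 3.10.9. The scripts' tests were tested on simulated data.

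The members and lists were chosen with earlier results of these data known. Genes named are the members, Cnot7 and Cnot8, of each related list up to 5 DEGs with the largest change and up to 3 other called genes with the highest mean CPM, and the 3 genes most like Upf1. Exceptions are stated, and 1 gene of a related list is not reported here. Alternatives were the exact test, DESeq2, 4 other scalings, 2 other filters, a ratio pseudocount of 0, the replicate number as a block and each library left out. Leaving out both libraries that lay apart and removing the GC trend were added after seeing the data. Libraries of the same group differed by more than sampling noise in all pairs (chi-square per degree of freedom 8.48 to 231).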

Additional observations from a re-analysis of the deposited data

Results flagged for a closer look

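Of 64 groups of 4 libraries examined with Dixon's test, 6 held a library far from the other 3. In independent groups chance gives about 1 in 20, here 3.2. The groups are not independent, because they share libraries, the ratios reuse members and some genes were chosen by likeness to Upf1. The 6 and the 3.2 thus cannot be weighed against each other. Control replicate 1 was the library in 5 of the 6. In it Cnot7 was at 1048 normalized CPM against 886 to 900 in the other controls, and Gspt1 at 103 against 53.4 to 60.4. Its Smg1/Upf1 count ratio was 0.7999 against 0.313 to 0.368, its Upf2/Upf1 ratio 0.352 against 0.139 to 0.154, and its Smg8/Smg9 ratio 29.2 against 9.38 to 11.4. The remaining case was Smg1 in KO replicate 4, at 240.2 normalized CPM against 144 to 153 in the other KO libraries.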

How the results depend on the processing

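For single members, 153 of 171 values kept their direction and their side of the threshold, 4 lost the call, 14 gained it and none reversed. For the other named genes these were 306 of 342, with 35 that lost the call and Atf4 reversed (0.0069 with library size only). With library size only, 588 genes were downregulated at least 2-fold in place of 1263. Of all 19241 tested genes 2620 were lower in place of 4631, and 7742 were higher in place of 5997. NMD factors then numbered 3 higher and 1 lower at least 2-fold, other NMD factors 5 higher, EJC genes 2 lower, and NMD-sensitive genes 8 higher and 0 lower. With TMM on genes of at least 10 CPM the same counts were 627, 2863, 7589, 3, 1, 5, 3 and, for NMD-sensitive genes lower, 0. Upper quartile scaling gave 2 NMD factors higher and 0 NMD-sensitive genes lower, as did the filter of at least 1 CPM in 4 libraries, which left 2882 genes upregulated in place of 4582 from fewer genes tested. Over all tested genes 6568 of 19241 were higher with upper quartile scaling and 4526 of 13876 with that filter. The exact test, no filter and the replicate block gave 0 NMD-sensitive genes lower, where Atf4 lost its call. With the GC trend removed, 2 NMD factors were higher, 1 was lower at least 2-fold and 2 NMD-sensitive genes were lower. Over all 19241 genes 6846 were then higher, 4690 lower and 976 lower at least 2-fold. Without both libraries that lay apart, 2 NMD factors and 5 other NMD factors were higher. Leaving out each library gave 1 to 2 NMD factors higher, 2 to 5 other NMD factors higher, 4 to 7 EJC genes lower and 0 to 1 NMD-sensitive genes lower. Over all tested genes 5363 to 6189 were then higher and 4086 to 4843 lower. For these differences the cause was not tested unless stated.

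Deviations of same-numbered libraries correlated at -0.38, -0.13, 0.38 and -0.56, and those of control replicate 1 and KO replicate 4 at 0.82. These values cannot show whether replicate numbers pair the libraries, because the libraries that lay apart bear different numbers. With the replicate block, 3 NMD factors were lower in place of 4, Upf3b having lost the call. Permuting labels within replicate numbers left the ratio differences at 0.65 for Upf3a/Upf3b, 1.75 for Smg1/Upf1 and 1.68 for Smg5/Smg6, with an adjusted p of 0.208 by exact permutation, where the smallest raw p is 0.125. Depth limits Smg9 most, with 34 counts in KO replicate 1.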

Other observations

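Genes with at least 1 transcript of the GENCODE biotype for nonsense-mediated decay were described beside other coding genes, by mean CPM, a list added after seeing the data. At 100 CPM or more, the median log2 fold change was -0.38 in 721 genes with such a transcript and -0.38 in 1646 without. Between 10 and 100 CPM it was -0.25 in 1811 genes and -0.15 in 4215, and between 1 and 10 CPM it was 0.31 in 959 and 0.62 in 3035. Below 1 CPM it was 1.03 in 511 genes and 1.20 in 2555. In each class the genes with an annotated NMD transcript were thus not above those without. Smg1, Smg5 and Smg6 have 1 such transcript each, and the other 6 members have none annotated.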
